A study of Mus musculus with 8 samples.

Results

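The enzymes that convert squalene to cholesterol were read in total liver RNA of mice given an alcohol diet. The 9 members are named enzymes of this pathway, *Sqle*, *Lss*, *Cyp51*, *Tm7sf2*, *Msmo1*, *Nsdhl*, *Ebp*, *Sc5d* and *Dhcr7*. They are 9 of the 19267 genes in the count table, and 9 of the 13993 genes with enough counts to be tested. Male C57BL/6 mice started the Lieber-DeCarli liquid diet at 6 weeks of age, were pair-fed for 21 days and were 9 weeks old at sampling. The EtOH diet held alcohol at 5% (w/v), and the Control diet held maltose dextrin of equal calories in its place. *Elf4*-/- denotes Elf4fl/fl-Villin-Cre mice, in which Cre driven by the villin promoter removes the transcription factor gene *Elf4* from intestinal epithelium, so that the liver measured here was not the target of the deletion. WT denotes control mice that carry the same Cre transgene. Crossing genotype with diet gave 4 groups of 2 libraries, named by both (WT Control and WT EtOH, then *Elf4*-/- Control and *Elf4*-/- EtOH). The sources used here do not say whether the replicate libraries came from separate animals or pools, so p-values measure only the spread between these samples.

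Cholesterol synthesis starts from acetyl-CoA and runs through mevalonate to the linear hydrocarbon squalene. Squalene is then oxidised by *Sqle*, folded into the first sterol, lanosterol, by *Lss*, and trimmed and reduced step by step to cholesterol in the endoplasmic reticulum. Liver is a major site of this synthesis. When sterols in the endoplasmic reticulum are scarce, the transcription factor SREBP-2 is released and induces genes along the whole route, with NF-Y and Sp1 as common partners at their promoters.

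Promoter windows from RefSeq (GRCm38.p6, 250 bases before to 50 after an annotated start) were found for 8 of the 9 members and not for *Sqle*. The NF-Y letters CCAAT, searched on both strands, stood in a window of 8 of 8 genes, against 41.1% of all 27025 genes in the RefSeq table. The Sp1 letters GGGCGG stood in a window of 8 of 8, against 38.2% of all genes, and 8 of 8 had both, against 14.5%. The sterol element letters TCACNCCAC stood in 0 of 8, against 1.44% of all genes. At so low a share, 0 of 8 cannot set the members apart from other genes, and other forms of the element were not searched. These are matches of letters and not measured binding. The 200 bases before the start are shown for 3 members that passed the genotype test under EtOH described further on (*Msmo1*, *Nsdhl* and *Dhcr7*) and, for contrast, for the 2 ends of the remaining range (*Lss* and *Ebp*). Each reads 5′ to 3′ on the strand of its gene, and capitals mark the NF-Y and Sp1 letters and their reverse complements.
Lss (chr10:76531405-76531604, plus strand): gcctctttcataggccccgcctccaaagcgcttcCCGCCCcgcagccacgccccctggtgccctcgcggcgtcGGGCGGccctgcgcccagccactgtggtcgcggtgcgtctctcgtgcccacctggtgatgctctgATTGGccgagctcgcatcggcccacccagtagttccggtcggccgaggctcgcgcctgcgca
Msmo1 (chr8:64733579-64733778, minus strand): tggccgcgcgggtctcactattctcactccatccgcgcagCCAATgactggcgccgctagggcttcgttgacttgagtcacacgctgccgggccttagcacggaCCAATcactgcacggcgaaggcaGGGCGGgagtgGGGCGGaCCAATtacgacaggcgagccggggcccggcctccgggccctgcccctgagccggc
Nsdhl (chrX:72918321-72918520, plus strand): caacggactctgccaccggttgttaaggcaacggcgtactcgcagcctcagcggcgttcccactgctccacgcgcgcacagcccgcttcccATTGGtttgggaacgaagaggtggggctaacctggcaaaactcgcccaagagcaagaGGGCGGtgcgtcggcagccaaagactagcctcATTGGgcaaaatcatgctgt
Ebp (chrX:8193513-8193712, minus strand): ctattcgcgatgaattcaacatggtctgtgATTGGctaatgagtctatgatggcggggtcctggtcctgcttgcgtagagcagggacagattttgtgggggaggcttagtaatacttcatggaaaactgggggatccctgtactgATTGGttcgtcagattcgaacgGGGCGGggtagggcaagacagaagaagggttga
Dhcr7 (chr7:143830014-143830213, plus strand): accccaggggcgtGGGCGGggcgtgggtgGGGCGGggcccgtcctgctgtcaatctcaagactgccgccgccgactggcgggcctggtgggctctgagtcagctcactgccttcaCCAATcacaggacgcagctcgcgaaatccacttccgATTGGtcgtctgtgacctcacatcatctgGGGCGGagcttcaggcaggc
*Dhcr7* has 3 windows in the table, and the one shown is the only one of them with CCAAT. The starts are those of RefSeq and can differ from the GENCODE gene spans given below. The *Msmo1* and *Dhcr7* stretches lie inside those spans and the *Lss* stretch overlaps its span. Those of *Nsdhl* and *Ebp* lie before theirs. Because 8 of 8 members with a window held both, the presence of these letters could not separate *Msmo1*, *Nsdhl* and *Dhcr7* from *Lss* and *Ebp*.

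Library totals ran from 6171051 to 9157362 counts. Values are given as CPM, which relates counts to the library total after scaling by TMM factors of edgeR. *Elf4* itself had 6 to 36 counts in every library and did not separate the genotypes, and because the deletion is intestinal this does not check the labels. The hepatocyte markers (*Alb*, *Apoa1*, *Ttr*, *Apob*, *Tat* and *Cps1*) were present in all 8 libraries and summed to 31189 to 71859 CPM. The share of counts on 27 mitochondrial genes ran from 10.8% in WT EtOH replicate 2 to 33.7% in WT Control replicate 1. In whole liver, fewer cells of a type and less RNA per cell cannot be told apart.

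*Sqle* (chr15:59315077-59331192, GRCm38), squalene epoxidase and a rate-limiting step of the route, had the highest ratio of its highest to its lowest library among the 9. It read 33.6 and 28.7 CPM under Control and 5.94 and 6.73 under EtOH in WT, and 44.8 and 38.3 under Control and 107 and 56.8 under EtOH in *Elf4*-/-. The WT EtOH values rest on 47 and 66 counts. Each WT EtOH library was below every other library, and each *Elf4*-/- EtOH library was above every other. *Lss* (chr10:76531588-76557138), lanosterol synthase, read 37.8 and 38.8 CPM under Control and 22.4 and 23.9 under EtOH in WT, and 65.2 and 38.0 under Control and 64.6 and 93.3 under EtOH in *Elf4*-/-. The WT EtOH libraries were again the lowest, but the *Elf4*-/- groups overlapped.

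*Cyp51* (chr5:4081145-4104746), the lanosterol demethylase, read 53.9 and 47.1 CPM under Control and 55.3 and 63.0 under EtOH in WT, and 72.1 and 57.9 under Control and 263 and 126 under EtOH in *Elf4*-/-. *Tm7sf2* (chr19:6062821-6068373), a sterol reductase that acts next, read 44.9 and 42.9 CPM under Control and 49.8 and 51.8 under EtOH in WT, and 72.6 and 58.3 under Control and 152 and 70.4 under EtOH in *Elf4*-/-. Neither gene was lower in WT EtOH than in WT Control, unlike *Sqle* and *Lss*. *Cyp51* shares 3.76% of its exon bases with *Akap9* on the opposite strand, and *Tm7sf2* shares 12.1% with *Vps51* on the same strand, so reads there could have been counted for either gene.

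*Msmo1* (chr8:64718139-64733792), the methylsterol oxidase that starts removal of the remaining methyl groups, read 77.4 and 88.5 CPM under Control and 53.9 and 50.2 under EtOH in WT, and 100.03 and 107 under Control and 440.3 and 222 under EtOH in *Elf4*-/-. *Nsdhl* (chrX:72918557-72958514), the dehydrogenase that follows it, read 71.2 and 43.2 CPM under Control and 18.5 and 18.9 under EtOH in WT, and 83.2 and 65.6 under Control and 134 and 83.7 under EtOH in *Elf4*-/-. Both genes were lowest in the 2 WT EtOH libraries and highest in the 2 *Elf4*-/- EtOH libraries, and for *Msmo1* the step up was the larger one while for *Nsdhl* the step down was.

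*Ebp* (chrX:8185329-8193512), the sterol isomerase, had the smallest ratio of highest to lowest library. It read 97.5 and 123 CPM under Control and 99.0 and 78.0 under EtOH in WT, and 107 and 118 under Control and 173 and 135 under EtOH in *Elf4*-/-. Only the *Elf4*-/- EtOH libraries stood apart from all others. *Sc5d* (chr9:42251595-42264256), the lathosterol oxidase, read 302 and 285 CPM under Control and 144 and 144 under EtOH in WT, and 412 and 321 under Control and 338 and 421 under EtOH in *Elf4*-/-. *Dhcr7* (chr7:143823145-143848410), the reductase that makes cholesterol from its immediate precursor, read 41.0 and 44.5 CPM under Control and 12.01 and 11.7 under EtOH in WT, and 60.9 and 56.5 under Control and 92.6 and 48.6 under EtOH in *Elf4*-/-. For these last genes the WT EtOH libraries lay apart from the rest, and the *Elf4*-/- EtOH libraries overlapped the *Elf4*-/- Control libraries.

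**Figure D1:**
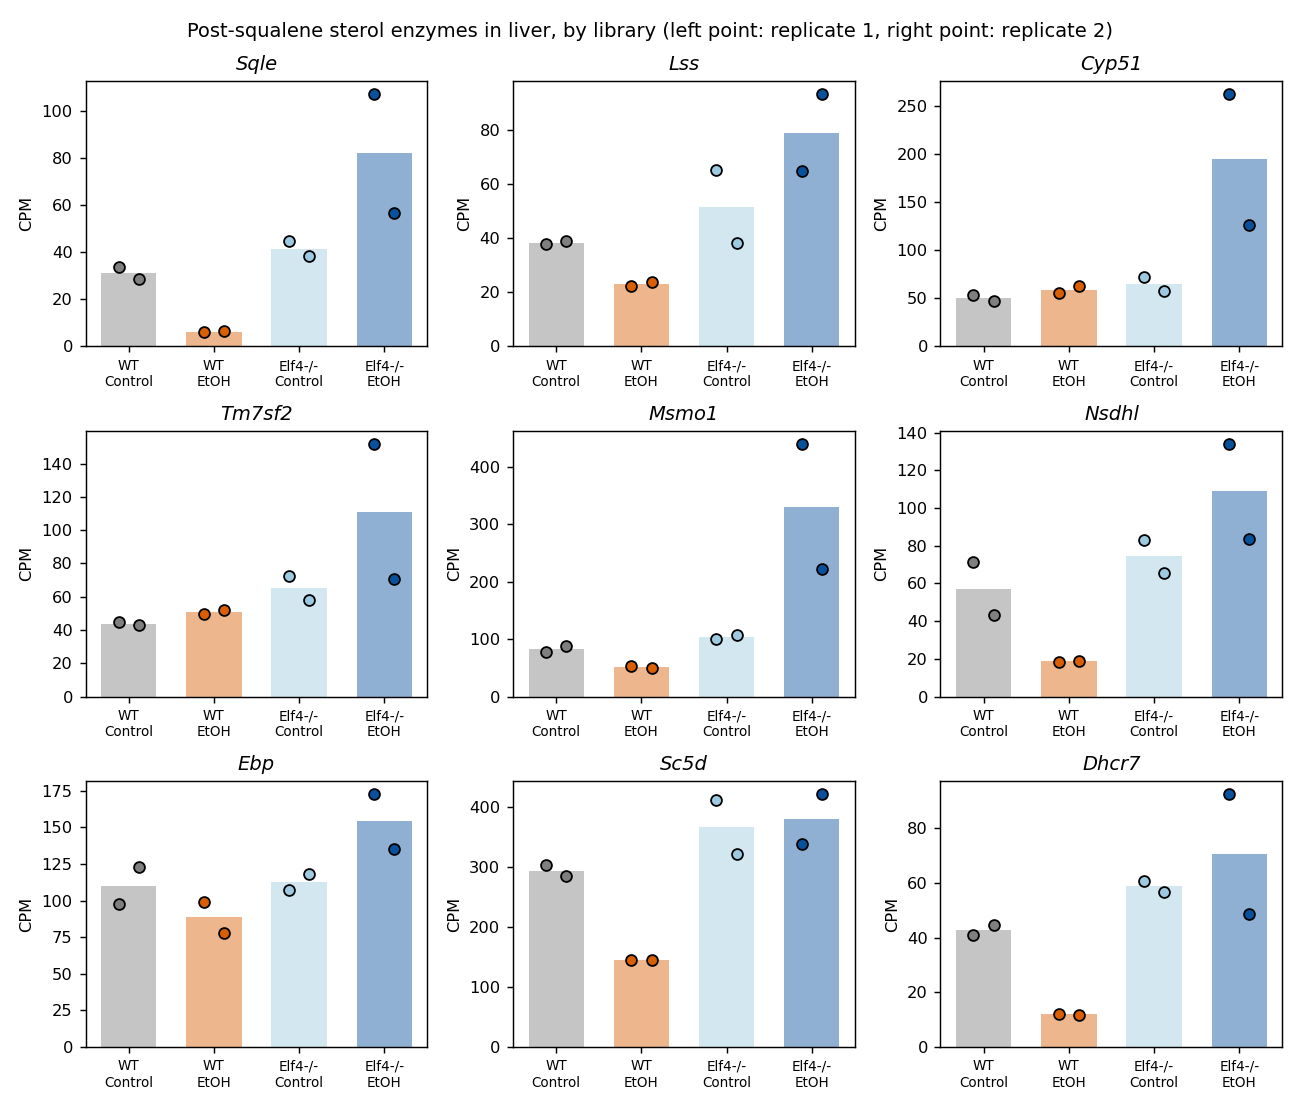
CPM of each of the 9 enzymes in the 4 groups; points are libraries (left, replicate 1; right, replicate 2), bars are means of 2 libraries, and each panel has its own axis from 0. *Sqle*, *Nsdhl*, *Sc5d* and *Dhcr7* drop in WT EtOH (*Sqle* to 5.94 and 6.73 CPM), while *Cyp51* and *Msmo1* stand high in *Elf4*-/- EtOH (*Msmo1* at 440.3 and 222 CPM).

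Within the alcohol diet, 4 of the 9 enzymes passed the test as higher in *Elf4*-/- liver, and all 9 were fitted above 0. *Sqle* was 12.9-fold higher (82.1 ± 35.8 against 6.33 ± 0.554 CPM, mean ± SD, n = 2 each), *Msmo1* 6.36-fold (331 ± 155 against 52.1 ± 2.56), *Dhcr7* 5.93-fold (70.6 ± 31.1 against 11.9 ± 0.207) and *Nsdhl* 5.83-fold (109 ± 35.6 against 18.7 ± 0.277). These 4 of 9 passed the quasi-likelihood test of edgeR, fitted on all 8 libraries and adjusted over all genes by Benjamini and Hochberg, with adjusted p of 0.00173, 0.0138, 0.0134 and 0.016. Over all genes tested, 0.121% were called higher in this comparison, so the members hold 4 of the 17 genes called. The log2 fold changes were 3.69 ± 0.32 (SE) for *Sqle*, 2.67 ± 0.31 for *Msmo1*, 2.57 ± 0.29 for *Dhcr7* and 2.54 ± 0.30 for *Nsdhl*.

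The other 5 did not pass in edgeR. *Lss* (log2 fold change 1.77, 95% interval 1.15 to 2.38, edgeR adjusted p = 0.0517) and *Sc5d* (1.40, 0.89 to 1.91, edgeR adjusted p = 0.0608) fell just outside the threshold of 0.05. *Cyp51* had 1.72 (edgeR adjusted p = 0.0998), *Tm7sf2* 1.13 (0.24) and *Ebp* 0.80 (0.251). In all 9 members both *Elf4*-/- EtOH libraries lay above both WT EtOH libraries, as they did for 20.0% of all genes. The median log2 fold change was 1.77 over the members and 0.00 over all genes tested.

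By DESeq2, 7 of 9 members were called higher, where 1.06% of all genes were. The edgeR calls of the members rested on having both WT EtOH libraries, as did most calls over all genes. Without WT EtOH replicate 1 the median log2 fold change of the members was 1.71, and without replicate 2 it was 1.82. Omission of an *Elf4*-/- library also changed the count called, for the members and over all genes. Under the omission of any 1 library the median of the members ran from 1.71 to 2.15. When only the 4 EtOH libraries were fitted, 0 of 9 members and 0 of all genes were called higher. In the same comparison 2 of 6 Kupffer cell markers were called lower in *Elf4*-/- EtOH, as were 3 of the 13993 genes tested. The Kupffer cell markers summed to 189 to 199 CPM, against 505 to 558 in WT EtOH. Sinusoidal endothelial markers summed to 104 to 172 CPM against 206 to 252, with 0 of 5 called (median log2 fold change -0.79). Hepatocyte markers summed to 41501 to 52404 CPM against 31189 to 37547, with 0 of 6 called (median log2 fold change 0.66). The mitochondrial share was 20.2% ± 2.69 against 11.7% ± 1.25 (SD, n = 2). The part of these differences in the enzyme values was not tested.

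Under the Control diet the genotypes were much closer. The log2 fold changes of the 9 members ran from 0.03 (*Ebp*) to 0.58 (*Tm7sf2*), with a median of 0.38, against 0.01 over all genes. None passed in edgeR (0 of 9, smallest adjusted p = 0.754, and 0 of 9 at an unadjusted p under 0.05), where 0.0143% of all genes were called in either direction, and DESeq2 called 0 of 9, against 0.500% of all genes. In 6 of 9 members both *Elf4*-/- libraries were nonetheless above both WT libraries, against 20.0% of all genes. The intervals still allow sizeable differences, for example -0.21 to 1.05 for *Sqle* and -0.14 to 1.06 for *Dhcr7*. The values of *Ebp* (0.03) and *Lss* (0.43) change sign with 1 library, to -0.12 for *Ebp* without WT Control replicate 1 and to -0.0040 for *Lss* without *Elf4*-/- Control replicate 1. Sinusoidal endothelial markers summed to 110 to 112 CPM in *Elf4*-/- Control against 44.0 to 74.4 in WT Control. Stellate cell markers summed to 80.6 to 119 against 24.1 to 68.4, with 0 of 5 called in each list. Hepatocyte markers had a median log2 fold change of 0.00. The mitochondrial share was 18.6% against 28.6%. The part of these differences in the enzyme values was not tested.

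The alcohol diet lowered part of the set in WT liver. *Sqle* fell by 2.29 on the log2 scale (4.89-fold, edgeR adjusted p = 0.00242), *Dhcr7* by 1.85 (3.60-fold, edgeR adjusted p = 0.00359), *Nsdhl* by 1.62 (3.06-fold, edgeR adjusted p = 0.00662) and *Sc5d* by 1.03 (2.04-fold, edgeR adjusted p = 0.0129). These 4 of 9 were called lower, where 10.8% of all genes were called lower and 10.8% higher. Scaled by library totals alone, 4.53% of all genes were called lower and 24.5% higher, and the median of the members was -0.29. DESeq2 also called 4 of 9 lower, against 10.1% of all genes. *Lss* (-0.73, edgeR adjusted p = 0.0873) and *Msmo1* (-0.67, edgeR adjusted p = 0.13) did not pass, though their groups did not overlap.

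In total 6 of 9 members had both WT EtOH libraries below both WT Control libraries, against 32.7% of all genes. *Cyp51* and *Tm7sf2* lay the other way without overlap, at 0.23 and 0.21 on the log2 scale, and did not pass (edgeR adjusted p = 0.631 and 0.661). The median over the members was -0.73. Fewer members were called lower without either of the WT EtOH libraries, and fewer of all genes were too. Under the omission of any 1 library the median of the members ran from -0.78 to -0.71. *Sqle* and *Dhcr7* were called lower under the omission of any 1 of the 8 libraries, *Nsdhl* under 6 and *Sc5d* under 5.

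Markers of several liver cell types moved with this diet effect. The hepatocyte markers summed to 51811 to 71859 CPM in WT Control and 31189 to 37547 in WT EtOH, with 1 of 6 called lower and a median log2 fold change of -0.94. Kupffer cell markers were called higher in 6 of 6, sinusoidal endothelial markers in 5 of 5 and stellate cell markers in 4 of 5, while 2 of 5 red blood cell markers were called lower. The mitochondrial share was 28.6% ± 7.26 in WT Control and 11.7% ± 1.25 in WT EtOH (SD, n = 2). The median fall of the enzymes was thus no larger than that of the hepatocyte markers, while those of *Sqle*, *Dhcr7*, *Nsdhl* and *Sc5d* were larger in value. The difference between the gene groups, and the part of the markers and of the mitochondrial share in the enzyme values, was not tested.

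In *Elf4*-/- liver the diet effect on every member was above 0, from 0.05 (*Sc5d*) to 1.68 (*Msmo1*). *Msmo1* rose 3.20-fold (log2 fold change 1.68 ± 0.30 SE, edgeR adjusted p = 0.0254) and *Cyp51* rose 2.99-fold (1.58 ± 0.31 SE, edgeR adjusted p = 0.0319). These 2 of 9 were called higher in edgeR, where 1.71% of all genes were, and 2 of 9 in DESeq2, where 3.17% were. *Sqle* (0.98, edgeR adjusted p = 0.0842), *Tm7sf2* (0.76, 0.192) and *Lss* (0.61, 0.224) did not pass. In 5 of 9 members both EtOH libraries lay above both Control libraries, against 25.8% of all genes. In the same comparison 0 of 6 hepatocyte markers were called (median log2 fold change -0.05) and 1 of 6 Kupffer cell markers was called higher. The summed hepatocyte markers nonetheless lay at 41501 to 52404 CPM under EtOH, against 63502 to 71064 under Control, and the stellate cell markers at 191 to 300.1 against 80.6 to 119. The part of these markers in the enzyme values was not tested.

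The count called in this comparison turned on single libraries, for the members and over all genes. More members were called higher without *Elf4*-/- EtOH replicate 2, and fewer without any 1 of the other libraries. The count over all genes went the same way under each omission. The median log2 fold change of the members ran from 0.27 to 0.92. *Cyp51* was called under 1 of the 8 omissions and *Msmo1* under 4, and without *Elf4*-/- EtOH replicate 1 their log2 fold changes were 0.96 and 1.10. The values of *Sc5d* and *Dhcr7* had no stable sign, at -0.14 for *Sc5d* without *Elf4*-/- EtOH replicate 2, -0.12 without *Elf4*-/- Control replicate 2, and -0.27 for *Dhcr7* without *Elf4*-/- EtOH replicate 1.

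**Figure D2:**
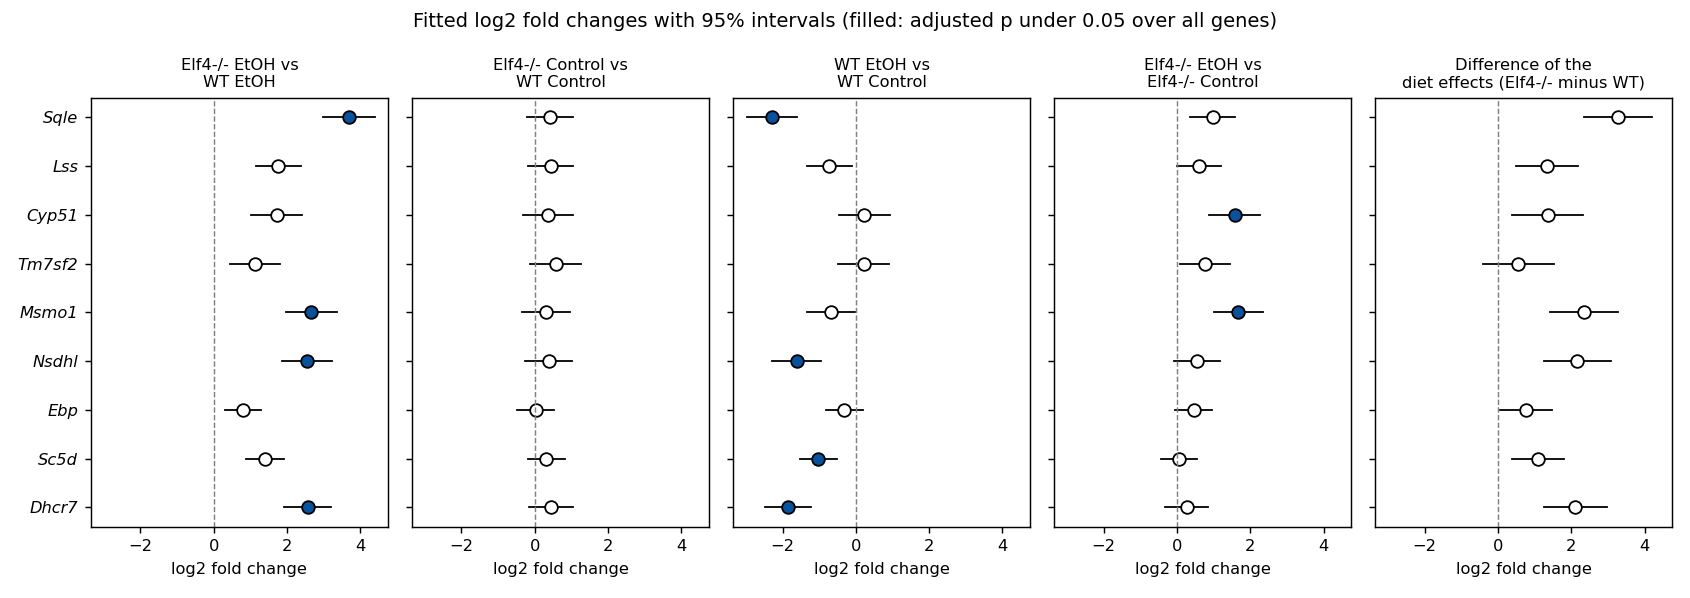
Fitted log2 fold changes of the 9 enzymes (points) with 95% intervals (lines) in the 4 comparisons between groups and for the difference of the diet effects; filled points passed the edgeR test over all genes at an adjusted p under 0.05. Filled points appear for *Sqle*, *Msmo1*, *Nsdhl* and *Dhcr7* under EtOH, for *Sqle*, *Nsdhl*, *Sc5d* and *Dhcr7* by diet in WT, and for *Cyp51* and *Msmo1* by diet in *Elf4*-/-.

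The diet effect was thus below 0 in WT and above 0 in *Elf4*-/- for 7 of 9 members, as it was for 13.6% of all genes. In *Sqle*, *Msmo1* and *Nsdhl* the groups did not overlap in either genotype, as in 1.89% of all genes. For *Nsdhl* in *Elf4*-/- the nearest libraries were at 83.7 CPM under EtOH and 83.2 under Control, and its rise there did not pass (0.55, edgeR adjusted p = 0.298). The difference of the diet effects (*Elf4*-/- minus WT) was 3.27 ± 0.42 (SE, log2) for *Sqle*, 2.35 ± 0.42 for *Msmo1*, 2.16 ± 0.41 for *Nsdhl* and 2.11 ± 0.39 for *Dhcr7*. None passed in edgeR over all genes (0 of 9, and 0% of all genes), with *Sqle* having the smallest adjusted p of 0.108, although 8 of 9 were higher at an unadjusted p under 0.05, as were 4.94% of all genes. DESeq2 called these 4 of 9 higher, against 0.507% of all genes. In edgeR more members, and more of all genes, were called when either *Elf4*-/- EtOH library was left out. Under the omission of any 1 library the median of the members ran from 1.21 to 1.78.

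By fitted value, the genotype with the larger diet effect was not the same for all enzymes. For *Sqle*, *Nsdhl*, *Sc5d* and *Dhcr7* the larger diet effect was the fall in WT, and for *Cyp51*, *Tm7sf2* and *Msmo1* it was the rise in *Elf4*-/-. The place of *Tm7sf2* rested on 1 library. Its rise in *Elf4*-/- (0.76) was as low as 0.10 with a library left out, against 0.21 in WT in the main fit. *Lss* and *Ebp* had effects of about equal size in both, at -0.73 and 0.61 for *Lss* and -0.32 and 0.46 for *Ebp*. Whether these enzymes differ from each other in this was not tested.

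**Figure D3:**
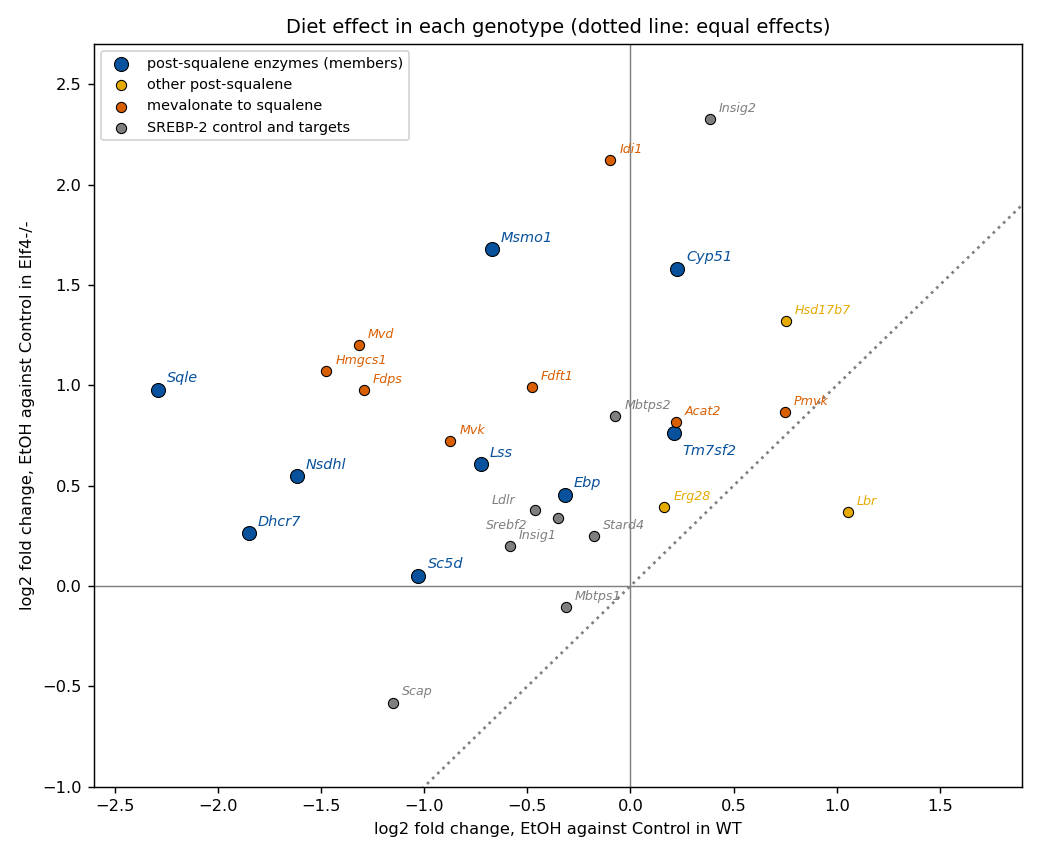
Diet effect (log2 fold change, EtOH against Control) in WT on the horizontal axis and in *Elf4*-/- on the vertical axis, for the 9 enzymes (large points) and 3 other lists of sterol genes (small points); the dotted line marks equal effects. *Sqle* (-2.29, 0.98), *Nsdhl* (-1.62, 0.55) and *Dhcr7* (-1.85, 0.26) lie far to the left, *Cyp51* (0.23, 1.58) lies high to the right of 0, and *Lbr* (1.05, 0.37) lies on the right side.

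Other enzymes of the same route did not all share the fall in WT with a rise in *Elf4*-/-. It was fitted in 0 of 3 other post-squalene genes and in 6 of 8 genes before squalene. Of 3 further post-squalene genes, *Lbr*, a nuclear membrane protein with sterol reductase activity like that of *Tm7sf2*, read 5.97 and 9.02 CPM under Control and 16.3 and 14.9 under EtOH in WT, and 13.9 and 9.70 under Control and 15.5 and 15.3 under EtOH in *Elf4*-/-. It rose with alcohol in WT by 1.05 (edgeR adjusted p = 0.0282). *Hsd17b7*, the reductase that works with *Nsdhl*, rose with alcohol in *Elf4*-/- (1.32, edgeR adjusted p = 0.0276). In WT it was also higher under EtOH without overlap and fell just outside the threshold (0.75, edgeR adjusted p = 0.0594). The difference of its diet effects was 0.57 (edgeR adjusted p = 0.635). *Erg28*, a scaffold protein of the demethylation steps, passed in no comparison by edgeR (smallest unadjusted p = 0.0216, between genotypes under EtOH). None of these 3 passed between genotypes under EtOH by the edgeR test (0 of 3, median 0.74, smallest adjusted p = 0.194, 0 of 3 by DESeq2). At an unadjusted p under 0.05, 2 of 3 were higher, as were 6.18% of all genes. *Lbr* shares 9.24% of its exon bases with *Dnah14* on the opposite strand.

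Among 8 genes from acetyl-CoA through mevalonate to squalene, 2 were called higher in *Elf4*-/- than in WT liver under EtOH, where 0.121% of all genes were. These were *Hmgcs1*, which makes the precursor of mevalonate (2.30, edgeR adjusted p = 0.0418), and *Fdft1*, which makes squalene (1.43, edgeR adjusted p = 0.0418) and shares 18.3% of its exon bases with *Ctsb* on the opposite strand. All 8 were fitted above 0, with a median of 1.82, and DESeq2 called 8 of 8 higher, against 1.06% of all genes. By diet, *Hmgcs1* fell in WT (by 1.47, edgeR adjusted p = 0.0144), and *Idi1* (2.12, edgeR adjusted p = 0.0484), *Acat2* (0.82, edgeR adjusted p = 0.047) and *Fdft1* (0.99, edgeR adjusted p = 0.0412) rose in *Elf4*-/-. The diet effect was below 0 in WT and above 0 in *Elf4*-/- for 6 of 8, against 13.6% of all genes. Groups did not overlap in either genotype for 5 of 8, against 1.89%. The difference of the diet effects had a median of 1.91, against 1.35 over the 9 members. In edgeR 0 of 8 passed for this difference, and DESeq2 called 3 of 8 higher, against 0.507% of all genes.

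Of 8 genes of SREBP-2 control and uptake, 0 were called between genotypes under EtOH by edgeR (6 of 8 higher at an unadjusted p under 0.05, against 6.18% of all genes, and 0 of 8 by DESeq2), with a median of 0.85. *Srebf2*, which encodes SREBP-2, read 37.3 and 33.1 CPM under Control and 29.6 and 25.7 under EtOH in WT, and 44.5 and 33.9 under Control and 59.9 and 39.5 under EtOH in *Elf4*-/-. Its log2 fold change between genotypes under EtOH was 0.85 (edgeR adjusted p = 0.256). *Scap*, the escort protein of SREBP-2, fell with alcohol in WT (by 1.15, edgeR adjusted p = 0.00813). In *Elf4*-/- it was also lower under EtOH without overlap, but did not pass (-0.58, edgeR adjusted p = 0.175). The difference of its diet effects was 0.57 (edgeR adjusted p = 0.588).

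The 2 *Elf4*-/- EtOH libraries disagreed on most members, and not in the same direction for all. In 7 of 9 the value of replicate 1 was above that of replicate 2, by a log2 ratio of 0.35 (*Ebp*) to 1.11 (*Tm7sf2*), with a median of 0.92 over the 9. In *Lss* (-0.53, 95% counting interval -0.71 to -0.35) and *Sc5d* (-0.32, -0.40 to -0.24) replicate 2 was higher. Over the 9398 genes that averaged 50 counts or more, the ratio had a median of -0.02 and an SD of 0.68. Counting intervals do not cover spread between animals or libraries.

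Genes of the control list split between these libraries too. *Insig1*, a sterol sensor and SREBP-2 target, had a ratio of -0.94 and *Stard4*, a sterol carrier, -0.71, on the side of *Lss* and *Sc5d*. *Insig2* read 339.5 CPM in replicate 1 and 53.7 in replicate 2, a ratio of 2.66. In *Elf4*-/- Control, replicate 1 was higher for 7 of 9 members, with *Lss* the most unequal (0.78) beside *Insig1* (1.30). In WT EtOH the ratios of the members stayed between -0.19 and 0.34.

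**Figure D4:**
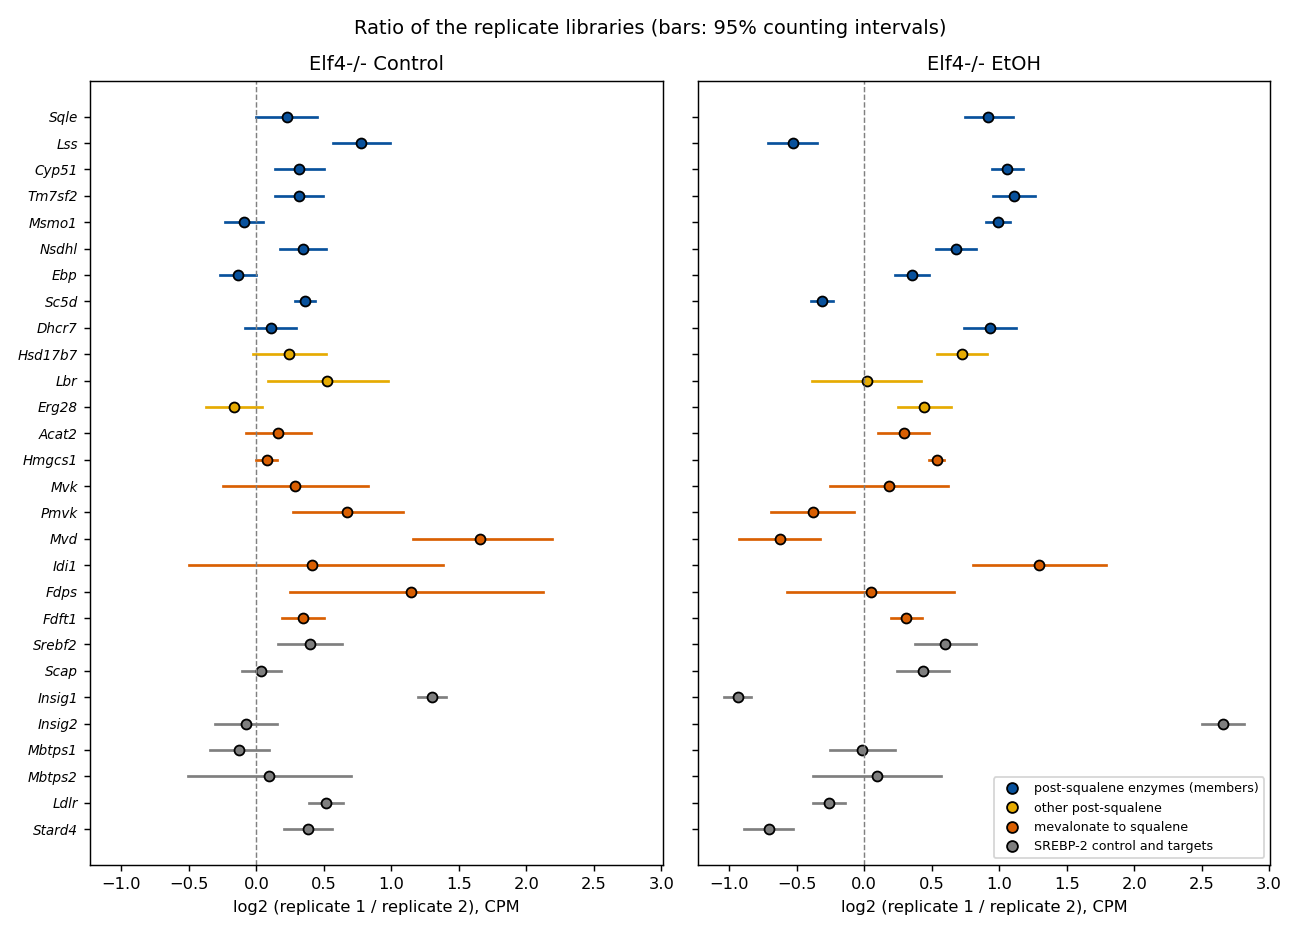
Log2 ratio of CPM in replicate 1 over replicate 2 (points) with 95% counting intervals (bars) in *Elf4*-/- Control and *Elf4*-/- EtOH, for the 9 enzymes and 3 other lists of sterol genes. In *Elf4*-/- EtOH, 7 of 9 enzymes lie right of 0, *Lss* (-0.53) and *Sc5d* (-0.32) lie left of it with *Insig1* (-0.94), and *Insig2* lies far right (2.66).

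Summed over the 9 members, expression was 760 and 741 CPM under Control and 461 and 448 under EtOH in WT, and 1017 and 860 under Control and 1765 and 1257 under EtOH in *Elf4*-/-. The order of the 4 groups in the sum was therefore WT EtOH, WT Control, *Elf4*-/- Control and *Elf4*-/- EtOH, with no overlap between neighbours. The sum weights enzymes by their level, and *Sc5d* held a mean of 293 of 750 CPM in WT Control. The means of *Cyp51* and *Tm7sf2* did not follow this order, as WT EtOH lay above WT Control. As a description over 8 libraries, which share the group differences, each member was compared with the mean centred log2 CPM of the other 8. Pearson's r was highest for *Sqle* (0.96) and *Nsdhl* (0.95) and lowest for *Tm7sf2* (0.75) and *Cyp51* (0.73).

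The 8 genes most like the mean centred log2 CPM of the 9 members, among 9389 other genes that averaged 50 counts or more, were *Mvk* (r = 0.985), *Mmab* (0.961), *Idh3a* (0.951), *Acss2* (0.948), *Hibch* (0.944), *Decr2* (0.937), *Letm1* (0.936) and *Atp6v0a1* (0.929). *Mvk*, mevalonate kinase, read 6.71 and 7.36 CPM under Control and 3.79 and 3.87 under EtOH in WT, and 8.71 and 7.16 under Control and 14.03 and 12.3 under EtOH in *Elf4*-/-. *Mmab*, an adenosyltransferase of vitamin B12 metabolism, read 20.7 and 18.4, 12.1 and 10.9, 21.5 and 16.6, and 30.0 and 25.1 CPM in the same order. *Mvk* and *Mmab* lie head to head on chromosome 5 of GRCm38, with 209 bases between their annotated starts. *Acss2*, acetyl-CoA synthetase, read 73.3 and 83.3, 46.7 and 48.1, 173 and 110.4, and 198 and 127 CPM. *Srebf2* ranked 9 and *Hmgcs1* 10.

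Levels were compared between enzymes as mean CPM per kilobase of exon. In WT Control *Sc5d* (60.3 ± 2.56, SD, n = 2) and *Ebp* (47.7 ± 7.77) led, and *Sqle* (5.61 ± 0.619) and *Lss* (3.55 ± 0.0638) came last. In WT EtOH *Ebp* (38.3 ± 6.44) came before *Sc5d* (29.6 ± 0.052), and *Lss* (2.15 ± 0.103), *Dhcr7* (2.04 ± 0.0356) and *Sqle* (1.14 ± 0.0998) were lowest, where *Lss* and *Dhcr7* differed by about their spread. In *Elf4*-/- EtOH *Sc5d* (78.0 ± 12.02), *Ebp* (66.8 ± 11.5) and *Msmo1* (53.9 ± 25.2) were within each other's spread. Per kilobase of the longest annotated transcript, a measure added after seeing the data, *Msmo1* ranked 1 in *Elf4*-/- EtOH in place of 3, so the order among the upper enzymes depends on the length used.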

How the data were processed

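Total RNA of 8 mouse liver samples was sequenced, with 2 libraries in each of 4 groups. Per the study's methods and the submitters' processing notes, the authors mapped reads to mm10 with HISAT2, sorted them with SAMtools, counted reads per gene with HTSeq and tested with DESeq2. Versions, annotation and strand setting are not given in the sources used here. The deposited table holds raw counts per gene symbol for 19267 genes in 1 column per library, and all of these columns were used. Blank lines (968) and 2 empty columns were left out.

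Genes were filtered with filterByExpr by group, which left 13993. Counts were scaled by TMM and fitted in edgeR 4.0.16 under R 4.3.3, where the 4 groups were the only term. The quasi-likelihood test gave 5 contrasts, and p-values were adjusted by Benjamini and Hochberg across every gene tested, with a threshold of 0.05. Intervals of fold changes are 95% intervals from the same fit. Log2 CPM used a prior count of 2. The common biological coefficient of variation was 22.7%. DESeq2 1.42.0 (Wald test), other scalings, filters, the replicate number as a block, fits of the 4 libraries compared and omission of each library were the alternatives. Where an omission left a group with 1 library, that library was assumed to vary like the other groups.

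Coordinates and lengths came from GENCODE M21 (GRCm38), which is not necessarily the annotation used for counting, and promoters from RefSeq. The members, the lists of other sterol genes and the cell type markers were chosen with earlier results of these data known. Some other sterol genes are not reported here. Named genes were the members, the other sterol genes of 3 lists where a test or a description turned on them, *Elf4*, and the 8 genes most like the members. Libraries of the same replicate number showed little shared shift between groups (correlations of same-numbered deviations from -0.11 to 0.06). This cannot tell whether the numbers pair animals, which the sources used here do not say.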

Additional observations from a re-analysis of the deposited data

Results flagged for a closer look

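The fitted diet effect on 3 enzymes ran in opposite directions in the 2 genotypes. Both EtOH libraries lay below both Control libraries in WT and above both in *Elf4*-/-. For no enzyme of these 3 did both diet effects pass in edgeR. The rise in *Elf4*-/- did not pass for *Sqle* (edgeR adjusted p = 0.0842) or *Nsdhl* (0.298), and the fall in WT did not pass for *Msmo1* (0.13). The nearest *Elf4*-/- libraries of *Nsdhl* read 83.7 CPM under EtOH and 83.2 under Control. The difference of the diet effects (*Elf4*-/- minus WT, log2) was 3.27 for *Sqle*, where the effect was -2.29 in WT and 0.98 in *Elf4*-/- (adjusted p of the difference 0.108 by edgeR and 1.17e-07 by DESeq2). It was 2.35 for *Msmo1*, with -0.67 in WT and 1.68 in *Elf4*-/- (adjusted p 0.205 by edgeR and 1.03e-04 by DESeq2). It was 2.16 for *Nsdhl*, with -1.62 in WT and 0.55 in *Elf4*-/- (adjusted p 0.22 by edgeR and 0.00156 by DESeq2). The difference therefore passed the threshold by DESeq2 and not by edgeR. Cell type markers differed in the same contrast, as given above, and their part in these values was not tested. Opposite diet effects without overlap were also seen in 5 of 8 genes from acetyl-CoA to squalene, and in 1.89% of all genes.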

How the results depend on the processing

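Of 164 alternative values of enzymes called by edgeR, 131 stayed called, 33 lost the call and 0 changed sign. The number of enzymes called higher between genotypes under EtOH was 4, 7 by DESeq2, 7 without a filter on low counts, 0 in the 4 EtOH libraries alone, and 0 to 8 when a library was left out. By diet in WT the number called lower was 4, and 2 to 6 when a library was left out. By diet in *Elf4*-/- the number called higher was 2, 0 in the 4 libraries alone and 0 to 4 when a library was left out. For the difference of the diet effects it was 0, 4 by DESeq2, 1 without a filter and 0 to 5 when a library was left out. Scaling by library totals alone moved the median of all genes by -0.23 between genotypes under EtOH, 0.23 under Control, 0.43 by diet in WT and -0.46 for the difference of the diet effects. The medians of the members moved with it to 1.54, 0.63, -0.29 and 0.86, and relative to all genes were 1.77, 0.39, -0.74 and 1.32. *Ebp* by diet in WT then changed sign, to 0.11. When a library was left out, the median of the members ran from 1.71 to 2.15 between genotypes under EtOH, from 0.27 to 0.92 by diet in *Elf4*-/-, and from 1.21 to 1.78 for the difference of the diet effects. Single genes that changed sign then were *Ebp* (-0.12 to 0.21) and *Lss* (-0.0040 to 0.77) between genotypes under Control, *Sc5d* (-0.14 to 0.24) and *Dhcr7* (-0.27 to 0.64) by diet in *Elf4*-/-, and *Tm7sf2* (-0.11 to 0.99) in the difference of the diet effects.

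Over all genes, DESeq2 called 148 higher and 30 lower between genotypes under EtOH where edgeR called 17 and 3, 40 and 30 under Control against 1 and 1, 443 and 346 by diet in *Elf4*-/- against 239 and 165, and 71 and 27 for the difference of the diet effects against 0 and 0. Without a filter the counts were 40 and 10 under EtOH, 10 and 4 under Control, and 4 and 3 for the difference. In the 4 libraries alone they were 0 and 0 under EtOH, 12 and 10 under Control, and 22 and 18 by diet in *Elf4*-/-. By diet in WT edgeR called 1518 higher and 1507 lower, and 3422 and 634 when scaled by library totals alone, which gave 10 higher under EtOH and 4 under Control. When a library was left out, the numbers called higher ran from 0 to 272 under EtOH, 0 to 33 under Control, 373 to 1922 by diet in WT, 5 to 824 by diet in *Elf4*-/- and 0 to 92 for the difference. With the replicate block 4 enzymes were called higher under EtOH, 4 lower by diet in WT and 2 higher by diet in *Elf4*-/-, the same numbers as without it, and over all genes 8 were called higher under EtOH and 136 higher and 104 lower by diet in *Elf4*-/-. Because the numbers of the WT groups correlated at -0.11, a crossed replicate block was added after seeing the data, and it called 4 enzymes lower by diet in WT. With 2 libraries per group, the differences seen under Control, up to 0.58 on the log2 scale, did not pass the test. Why the counts changed between tools and filters was not tested.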
